A study of Mus musculus with 2 samples.

Results

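Chemokines are small proteins that direct the movement of cells carrying matching receptors, and the 10 genes described here, Cxcl16, Cxcl1, Cxcl5, Cxcl10, Cxcl12, Cx3cl1, Ccl2, Ccl5, Ccl7 and Ccl20, each encode 1 of them. They were taken by gene symbol from the 22609 gene rows of an Ago2 RNA immunoprecipitation experiment. The list was chosen from earlier results of the same libraries, in which Cxcl16 stood among the higher genes that carry a match to the miRNA, so its ratio and its matches are given below as a description. Of the 10 genes, 9 had at least 20 reads over both libraries, as did 12186 of all genes. Those 12186 genes are called the tested genes below, although no statistical test could be made with 1 library per condition.

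The cells were TM4, an established mouse Sertoli cell line and so a single line in culture, without the germ cells that Sertoli cells nurse in the testis. They were grown in DMEM with serum and transfected with miR-471-5p mimic or with scramble, and 48 h later RNA was pulled down with an antibody to Ago2, the protein that holds a miRNA on the mRNAs it pairs with. There is 1 Ago2 IP library of mimic-transfected cells and 1 of scramble-transfected cells, so no difference below has a replicate check. Input RNA, taken ahead of the pull-down, was not analysed here, and a change in the amount of an mRNA, a change in the number of cells that make it and a change in its association with Ago2 cannot be told apart.

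Chemokines bind G protein-coupled receptors on leukocytes and other cells. Most fall into a CC or a CXC class by the spacing of conserved cysteines, while Cx3cl1 is of the CX3C class. Many are made at a low level until inflammatory cytokines or interferons act through NF-kB and interferon-regulated factors, and their mRNAs are often short-lived through AU-rich elements in the 3′ UTR. Cxcl12 is the main homeostatic chemokine, made without such a stimulus, and in the testis it takes part in the homing of spermatogonial stem cells. Cxcl16 and Cx3cl1 differ from the rest in being made as transmembrane proteins, which enzymes of the ADAM family can release from the cell surface.

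Reads assigned to genes numbered 18628310 for mimic and 18717225 for scramble. At either depth a count of 3 reads, taken as the lowest amount detectable, equals 0.161 CPM, the unit of reads scaled to the reads on all genes of a library. Of the Sertoli markers, Sox9 had 1228 reads with mimic and 1070 with scramble, Gata4 had 341 and 365, and Clu had 217 and 163, while Wt1 had only 73 and 35. Amh had 5 reads in both, Dmrt1 had 1 in both, and Fshr had none, so several defining markers of the labelled cell type were near or at 0. Chemokine mRNAs are also abundant in macrophages. All 8 listed macrophage marker genes had a row, with Adgre1 under its older symbol Emr1. Together they summed to 118 reads with mimic and 65 with scramble. The defining markers Ptprc, Emr1 and Itgam were at 0 in both. Cd14, with 81 and 26 reads, made up most of the sum with mimic but not with scramble. Csf1r had 18 reads with mimic and 25 with scramble, and Cd68 had 8 and 9. The part of such cells in the chemokine ratios was not tested beyond these values.

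Only Cxcl16 among the 10 genes carried a match to the miR-471-5p seed in its 3′ UTR. The seed spans nucleotides 2 to 8 of this miRNA, which RefSeq places on the minus strand of chromosome X (chrX:66792634-66792655, GRCm38.p6). The mature sequence is shown with the seed in capitals, since every match below is defined by it.
miR-471-5p: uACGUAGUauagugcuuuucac
An mRNA pairs with the whole seed through ACTACGT, the 7mer-m8 match, and a further A after it makes the 8mer ACTACGTA. The longest annotated 3′ UTR of each gene was searched. Of the 11751 tested genes with a 3′ UTR, 183 (1.56%) had at least 1 7mer-m8 match and 47 (0.400%) had at least 1 8mer. Cxcl16 had 10 matches in a 3′ UTR of 1421 nucleotides, and each of them was an 8mer. More than 1 7mer-m8 match was found in 4 tested genes in all. The other 3 had longer annotated 3′ UTRs: Agtpbp1 with 3 matches in 4395 bases, D10Wsu102e with 2 in 122583 and Lifr with 2 in 6320. Their log2 ratios of mimic to scramble were -0.23, 0.12 and -0.15, in that order. No gene other than Cxcl16 had more than 1 8mer.

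The 10 sites of Cxcl16 lay in a tandem repeat with a period of 40 bases. The repeat ran from base 300 to base 801 after the stop codon, which is 502 bases or 35.3% of the 3′ UTR, and a base in it was identical to the base 1 period on at 94.4% of positions. Between the first and the last match there were 12 repeat units, of which 10 held the 8mer and 2 did not. The 8mers began 323, 363, 403, 443, 483, 523, 603, 643, 683 and 763 bases after the stop codon, so 7 of the 9 gaps were 1 period and 2 gaps were 2 periods. The units are shown around the match, 30 bases each, with the 8 bases that face nucleotides 1 to 8 of the miRNA in capitals. The first 3 lines are the 3 forms with the match, found in 1, 4 and 5 copies, and the last 2 are the units that lack it.
Cxcl16 site 323: tctctatgtatatgACTACGTAtccctagg
Cxcl16 site 363: tccctatgtatatgACTACGTAtccctagg
Cxcl16 site 443: tccctgtgtatatgACTACGTAtccctagg
Cxcl16 unit 563: tccctatgtatatgACTACATAtccctagg
Cxcl16 unit 723: tccctgtgtatatgACTATGTAtccccagg
Counted from 1 at the first capital, the unit at 563 carries G6A and the unit at 723 carries C5T, so each differs from the match by 1 base. When the miRNA was laid along a site without gaps, all 10 sites paired over nucleotides 1 to 8 and none paired at nucleotide 9. Watson-Crick pairs over the whole miRNA numbered 10 or 11 of 22 at each site.

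**Figure D1:**
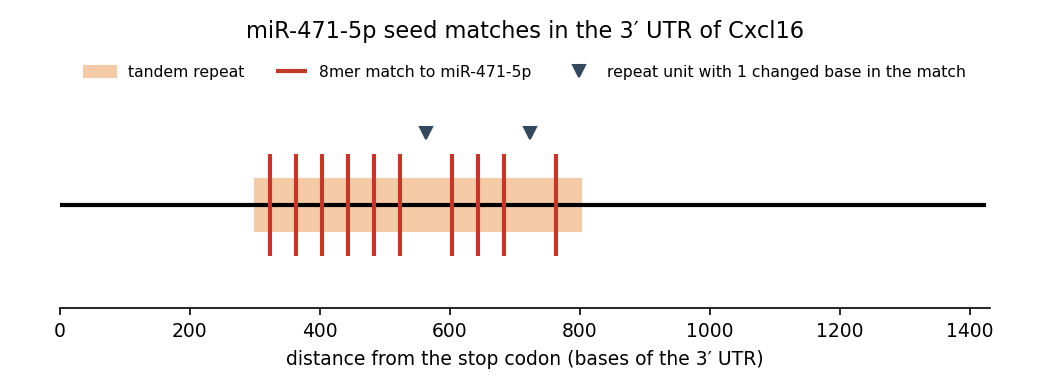
Map of the 3′ UTR of Cxcl16, to scale, with the distance from the stop codon in bases on the horizontal axis, the tandem repeat as a shaded box, the 8mer matches as red lines and the repeat units without a match as triangles. The 10 matches are spaced by multiples of 40 bases between 323 and 763, and the triangles stand at 563 and 723, where a unit is present but differs from the match by 1 base.

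The repeat also bears on how reads could be counted. Cxcl16 had a transcript of 2699 nucleotides, and reads that start inside identical repeat units cannot be placed uniquely in it. With reads of 36 nucleotides, 333 of the 2664 possible start positions (12.5%) would give a sequence found more than once in the transcript, with 50 nucleotides 251 of 2650 (9.47%), and with 100 nucleotides none. The read length of these libraries is not given in the sources used here. Exons of Zmynd15, on the opposite strand, covered 552 of the 3021 exonic bases of Cxcl16 (18.3%), and the strand setting of the counting is not given either, so reads in that stretch cannot be assigned with certainty. Zmynd15 itself had 43 reads with mimic and 23 with scramble.

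Cxcl16 encodes the ligand of the receptor Cxcr6, and its membrane form also acts as a scavenger receptor that binds phosphatidylserine and oxidised lipoprotein. The gene (ENSMUSG00000018920.11) lies on the minus strand of chromosome 11 (chr11:70453983-70459984, GRCm38). It had 486 reads with mimic and 96 with scramble, which is 26.0 and 5.14 CPM. The ratio of mimic to scramble was 5.06, with a 95% interval from 4.06 to 6.37, or 2.34 on the log2 scale with an interval from 2.02 to 2.67. These intervals, like all below unless another kind is named, were derived from exact Clopper-Pearson limits on the share of a gene's reads found with mimic, and cover counting error only. Among the tested genes the ratio of Cxcl16 was at percentile 99.5, while its mean level in CPM was at percentile 32.2.

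The 5 genes with the most similar levels to Cxcl16 were found by the distance between their log2 CPM values over both libraries. Stc1 had 424 and 110 reads in the mimic and scramble libraries, at a distance of 0.278. Fosl1 had 406 and 109 (0.318), Mx1 had 428 and 116 (0.329), Sap30 had 382 and 109 (0.393) and Mmp3 had 426 and 73 (0.438). None of these genes held a 7mer-m8 match in its 3′ UTR. Only 1.56% of tested genes with a 3′ UTR held one, so 5 genes would mostly hold none. With only 2 libraries such likeness rests on 2 values per gene.

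Of the 9 tested members, 3 were at least 2-fold higher in the mimic library and 0 were at least 2-fold lower. Over all tested genes 3.96% were higher and 3.08% lower by that fold. The members that passed were Cxcl16, Ccl5 and Cxcl10. The counting interval lay wholly above a ratio of 1 for 7 members and wholly below it for 1, against 31.5% and 32.5% of tested genes. The median log2 ratio of the 9 members was 0.26 and that of all tested genes -0.00063. Because the list was drawn up with these ratios known, these counts describe the members and support nothing further.

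**Figure D2:**
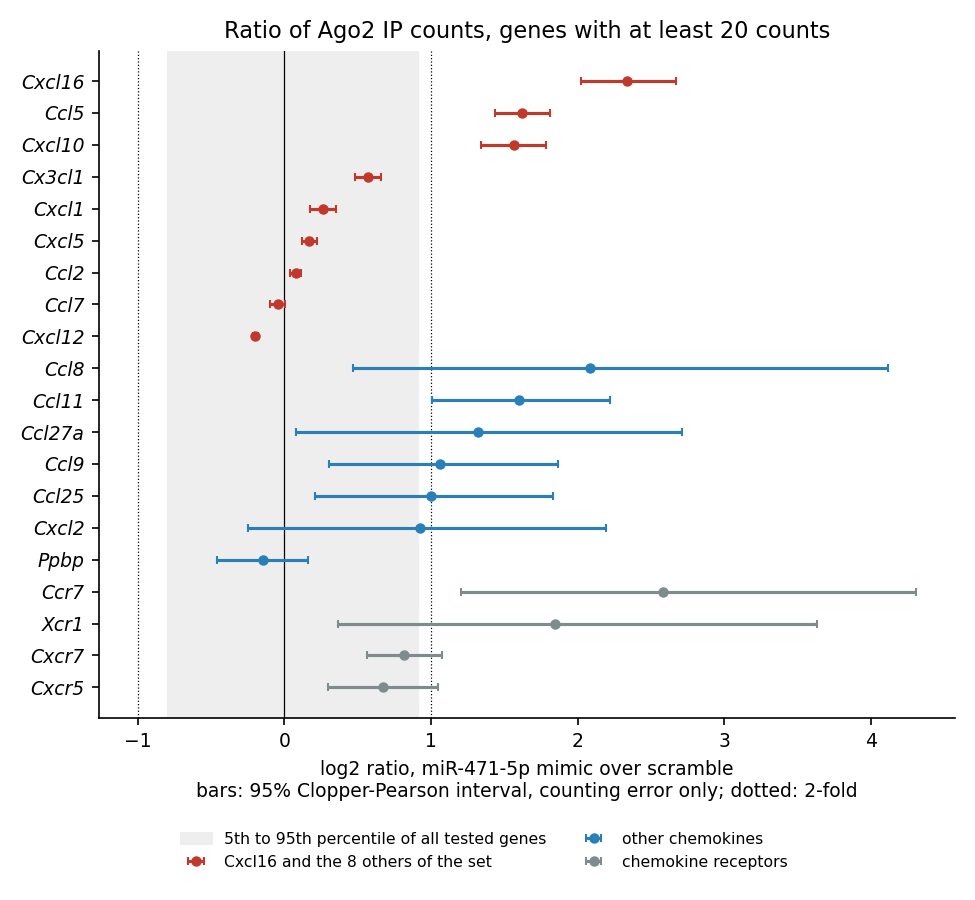
Log2 ratio of mimic to scramble (horizontal axis) for the 9 tested members, the 7 other chemokine genes and the 4 chemokine receptor genes with at least 20 reads, 1 row per gene. Bars are 95% counting intervals, the grey band is the 5th to 95th percentile of all tested genes (-0.80 to 0.91) and the dotted lines mark 2-fold. Cxcl16, Ccl5 and Cxcl10 lie to the right of the band, and the other 6 members lie inside it.

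Ccl5 and Cxcl10, the inflammatory and interferon-inducible chemokines that draw activated T cells and other leukocytes, were about 3-fold higher in the mimic library. Ccl5, a ligand of Ccr1 and Ccr3, on chromosome 11 (chr11:83525778-83530518, minus strand), had 982 reads with mimic and 319 with scramble, or 52.6 and 17.1 CPM. Its ratio was 3.08 (95% interval 2.71 to 3.50), a log2 ratio of 1.62. Cxcl10, a ligand of Cxcr3 on chromosome 5 (chr5:92346638-92348889, minus strand), had 668 and 226 reads, or 35.8 and 12.1 CPM. Its ratio was 2.95 (2.54 to 3.45), a log2 ratio of 1.56. The intervals of the ratios of Ccl5 and Cxcl10 overlapped, and both ended below the interval of Cxcl16. Neither had a seed match in its 3′ UTR or coding region. Of the 2252 exonic bases of Cxcl10, 133 (5.91%) were shared with Art3 on the opposite strand, which had 11 and 9 reads.

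Cxcl10 is a textbook interferon-inducible gene, and the 250 bases before its annotated start are shown to place the motifs named for such control, read on its own strand from RefSeq (chr5:92348890-92349139, minus strand, GRCm38.p6). In capitals is the match to GAAANNGAAA, a spacing found in interferon-stimulated response elements, together with the matches to GGGNNNNNCC, a loose form of the NF-kB motif.
Cxcl10 promoter: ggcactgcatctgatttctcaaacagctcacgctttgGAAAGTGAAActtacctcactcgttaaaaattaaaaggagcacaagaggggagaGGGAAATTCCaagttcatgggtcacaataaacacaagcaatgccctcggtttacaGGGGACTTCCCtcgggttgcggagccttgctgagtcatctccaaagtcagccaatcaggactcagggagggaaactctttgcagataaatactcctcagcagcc
The GAAANNGAAA match lay at positions -213 to -204 from the start, and this motif occurred on either strand in 978 of 32851 promoters of this length (2.98%). The matches to GGGNNNNNCC lay at -159 to -150, -104 to -95 and -103 to -94, the last pair overlapping, and this motif occurred in 45.8% of promoters. TGANTCA, the AP-1 motif, was also searched on both strands, lay at -74 to -68 from the start of Cxcl10 and occurred in 6.75% of promoters. The RefSeq table held 5 of the 10 members, Cxcl1, Cxcl10, Cxcl12, Cx3cl1 and Ccl20. GAAANNGAAA was found in Cxcl10 alone of these, and GGGNNNNNCC in all but Cx3cl1. A match is a description of letters and not a shown binding site.

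Cx3cl1, the other transmembrane chemokine and the ligand of Cx3cr1, was higher by less than 2-fold. On chromosome 8 (chr8:94772009-94782427, plus strand), it had 2590 reads with mimic and 1743 with scramble, or 139 and 93.4 CPM. The ratio was 1.49 (95% interval 1.40 to 1.58), a log2 ratio of 0.57 at percentile 87.7 of the tested genes. It held 1 6mer match (nucleotides 2 to 7 of the miRNA) in its coding region and none in its 3′ UTR. In the 3′ UTR, 6.77% of tested genes had such a match. The share with a 6mer in the coding region is not given here, so this match is a description only. So of the pair of transmembrane chemokines, the ratio of Cxcl16 was the larger and their counting intervals did not overlap.

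The enzymes that release both from the cell surface showed no change of 2-fold, like most tested genes. Adam10, which sheds Cxcl16 and Cx3cl1 constitutively, had 2228 reads with mimic and 2702 with scramble, a ratio of 0.824 (0.779 to 0.872). Adam17, which sheds them on stimulation, had 859 and 805 reads, a ratio of 1.07 (0.968 to 1.18). Of 8 listed shedding and trimming genes 7 were tested, and their log2 ratios ran from -0.41 to 0.52 with a median of 0.09. None of the 7 passed 2-fold, beside 3.96% of all tested genes higher and 3.08% lower.

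The neutrophil-attracting chemokines Cxcl1 and Cxcl5, both ligands of Cxcr2, differed by less than 1.5-fold between the libraries. Cxcl1 (chr5:90891241-90893115, plus strand) had 2260 reads with mimic and 1881 with scramble, or 121 and 101 CPM, a ratio of 1.20 (1.13 to 1.28). Cxcl5 (chr5:90759360-90761624, plus strand) had 6587 and 5849 reads, or 353 and 313 CPM, a ratio of 1.13 (1.09 to 1.17). Both ratios lay within the central range of all tested genes, at percentiles 72.1 and 65.2. Between these genes on chromosome 5, Ppbp had 168 and 186 reads, Pf4 1 and 1, Cxcl3 3 and 1, and Cxcl15 2 and 3, so neighbouring genes of the cluster stood far below them. Cxcl2, the next chemokine gene after Cxcl1, had 19 and 10 reads.

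The monocyte-attracting chemokines Ccl2 and Ccl7 lie side by side on the plus strand of chromosome 11 and had nearly equal counts in both libraries. Ccl2, the main ligand of Ccr2 (chr11:82035571-82037453), had 10678 reads with mimic and 10119 with scramble, or 572 and 542 CPM, a ratio of 1.05 (1.03 to 1.08). Ccl7, which binds Ccr1, Ccr2 and Ccr3 (chr11:82045712-82047525), had 5955 and 6150 reads, or 319 and 329 CPM, a ratio of 0.968 (0.934 to 1.003). Ccl7 was the only tested member whose counting interval included a ratio of 1. The eosinophil chemokine Ccl11, the next gene of this cluster, had 97 and 32 reads, a ratio of 3.03 (2.01 to 4.67). Further along, Ccl12 had no reads and Ccl8 had 17 and 4.

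Cxcl12, which acts through Cxcr4 and is scavenged by Cxcr7, was the member with the most reads and the only one whose interval lay wholly below 1. On the plus strand of chromosome 6 (chr6:117168535-117181367), it had 66547 reads with mimic and 76298 with scramble, or 3563 and 4087 CPM. The ratio was 0.872 (0.863 to 0.881), a log2 ratio of -0.20 at percentile 31.4 of the tested genes. Its mean level was at percentile 99.9, and it took 68.8% of the reads of the 10 members with mimic and 74.3% with scramble. The summed level of the members, 5180 CPM with mimic and 5500 CPM with scramble, therefore mostly followed Cxcl12.

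Ccl20, the ligand of Ccr6 on chromosome 1 (chr1:83116766-83119167, plus strand), had 0 reads with mimic and 2 with scramble. Both counts are below 3 reads, so no ratio is given, and a difference was not detectable at this depth.

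**Figure D3:**
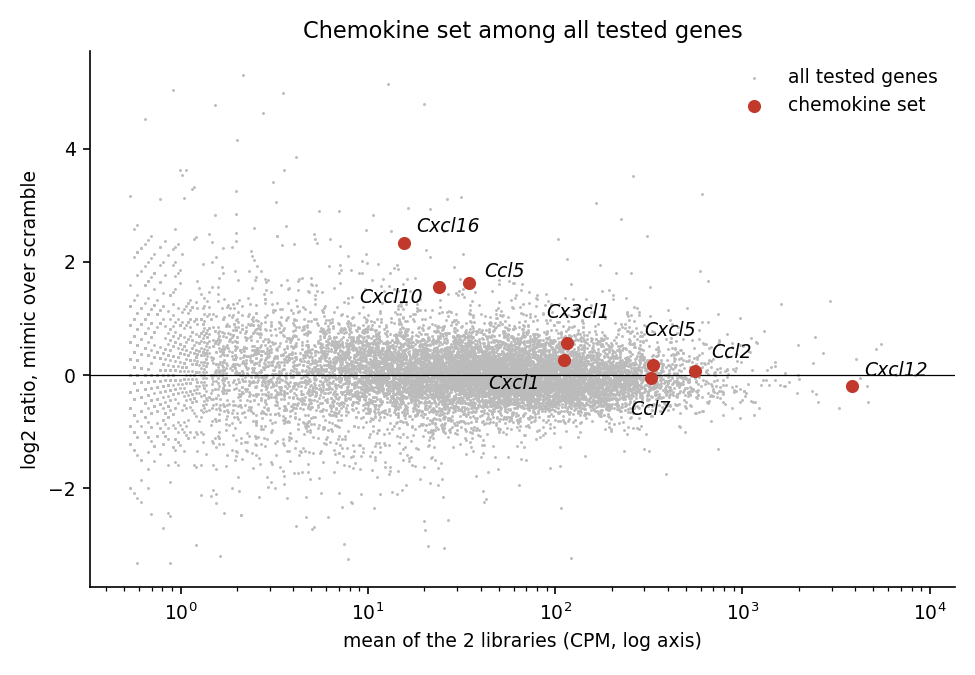
Log2 ratio of mimic to scramble (vertical axis) against the mean level of both libraries in CPM (horizontal log axis) for the 12186 tested genes in grey and the 9 tested members in red. The 3 members with a log2 ratio above 1 are those with the lowest mean levels, and the 4 members with the highest levels lie near 0.

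Levels of different genes were compared per length, as RPKM, the reads on a gene scaled to the length of its longest transcript and to the reads on all genes of the library. In the scramble library Cxcl12 led with 726 RPKM, followed by Ccl2 with 495, Ccl7 with 411 and Cxcl5 with 168. Cxcl1 had 53.9, Cx3cl1 28.2, Ccl5 25.6, Cxcl10 5.43 and Cxcl16 1.91 RPKM. Cx3cl1 and Ccl5 could not be ordered there by this length, since their 95% Poisson intervals overlapped (26.9 to 29.5 and 22.8 to 28.5 RPKM). In the mimic library the order by this length differed in 1 gene: Ccl5, with 78.7 RPKM (73.9 to 83.8), stood ahead of Cxcl1 with 64.7 (62.0 to 67.4) and Cx3cl1 with 41.8. Cxcl12 had 633, Ccl2 522, Ccl7 398 and Cxcl5 189 RPKM in that library. Cxcl16 stayed below the other 8 tested members, with 9.64 RPKM against 16.04 for Cxcl10. Some of these orders depended on the length used. With the union of annotated exons as length, Cxcl1 led Ccl5 in the mimic library (64.5 and 54.8 RPKM), Ccl2 led Cxcl12 there (502 and 436), and in the scramble library Cx3cl1 stood above Ccl5 (23.8 and 17.8). With the longest protein-coding transcript, Cxcl1 and Ccl2 again led in the mimic library, Cxcl1 with 127 RPKM against 98.8 for Ccl5 and Ccl2 with 703 against 633 for Cxcl12. In the scramble library Ccl5 then stood above Cx3cl1 (32.1 and 28.2). Ccl5 was above Cx3cl1 in the mimic library, and Cxcl16 the lowest tested member in both libraries, with each of the 3 lengths.

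**Figure D4:**
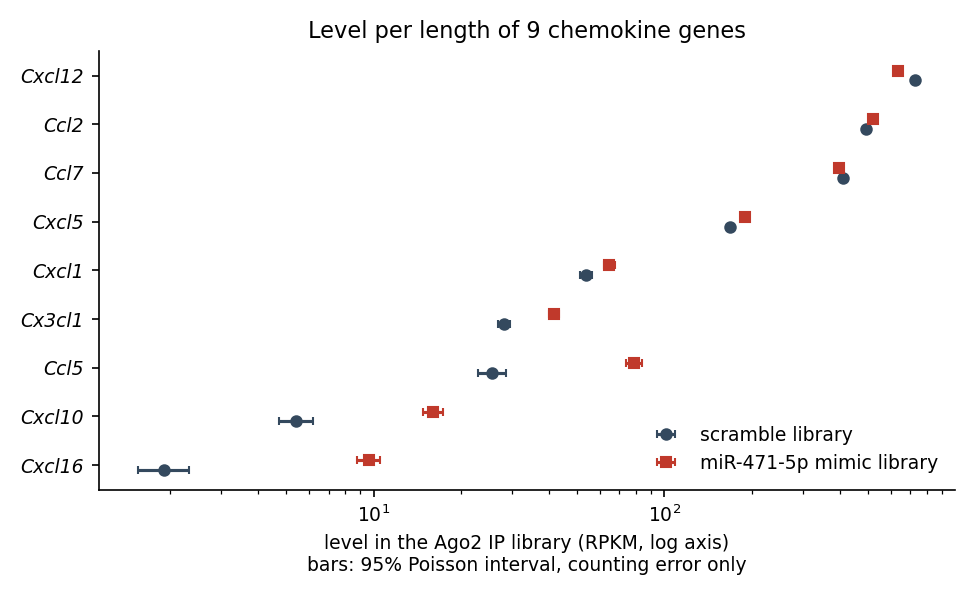
Level of the 9 tested members in the scramble library (circles) and the miR-471-5p mimic library (squares) in RPKM on a log axis, with 95% Poisson intervals for counting error only. Levels span from 1.91 RPKM for Cxcl16 to 726 RPKM for Cxcl12 in the scramble library, and the symbols stand clearly apart for Cxcl16, Cxcl10 and Ccl5.

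Transcript length moved with the ratio over all tested genes and so stands beside the members' values. When the genes were cut into 10 groups of equal size by the length of the longest transcript, the median log2 ratio was 0.43 in the group with the shortest transcripts and -0.25 in that with the longest. Ccl5, with 668 nucleotides, was in the group of shortest transcripts, where its ratio was at percentile 96.2. Ccl2 (1096 nucleotides) and Ccl7 (801) were in the same group at percentiles 17.7 and 12.2, so relative to transcripts of like length they stood low. Cxcl12, with 5627 nucleotides, was in a group with a median of -0.21 and stood at its percentile 51.1. Cxcl16 and Cxcl10 stayed at percentiles 99.5 and 98.8 of their groups, whose medians were 0.08 and 0.11. The part of length in any of these ratios was not tested.

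AU-rich elements, which shorten the life of many cytokine mRNAs, were counted as ATTTA in the longest 3′ UTR. At least 1 was present in 9 of the 10 members, all but Ccl5, and in 70.9% of tested genes with a 3′ UTR. Cxcl1 had 7 in 592 bases, or 11.8 per kilobase, a density at percentile 99.5, and Ccl20 had 9 in 1050 bases, at percentile 98.8. Cxcl5 had 5 and Ccl7 had 2, at percentiles 92.0 and 92.5. Cxcl16, with 2 in 1421 bases, and Cxcl12, with 4 in 5188 bases, were at percentiles 51.6 and 36.7. The longer element TTATTTATT was present in 8.38% of genes and, of the members, in Cxcl1 and Cx3cl1. All 9 listed regulators of such mRNAs were tested, and none was past 2-fold, with a median log2 ratio of 0.15 and a range from -0.62 to 0.70. Of all tested genes, 3.96% were higher and 3.08% lower by that fold, so a list of 9 may well hold none.

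The other chemokine genes had few reads in these pull-downs. Of 31 listed, 14 had no reads in either library, 10 had 1 to 19 reads in all and 7 were tested. Of those 7, 4 were at least 2-fold higher in the mimic library and 0 lower, with a median log2 ratio of 1.06. Over all tested genes 3.96% were higher and 3.08% lower, with a median of -0.00063, but the 4 genes had few reads, and among the 2073 tested genes with fewer than 200 reads 11.9% were higher and 8.88% lower. They were Ccl8 with 17 and 4 reads (ratio 4.25, 1.39 to 17.4), Ccl11 (above), Ccl27a with 20 and 8 (2.50, 1.05 to 6.56) and Ccl9 with 46 and 22 (2.09, 1.23 to 3.65). Ccl27a has near-identical copies, so its count is uncertain. Ccl9 lies beside Ccl5 on chromosome 11. Beside Cxcl10 on chromosome 5, Cxcl9 had 7 and 3 reads and Cxcl11 had 14 and 5, which are too few to be tested.

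Most of the members' receptors that are named here had almost no reads. Cxcr6, the receptor of Cxcl16, had 1 read with mimic and 3 with scramble. Cxcr4 had 2 and 0, Cx3cr1 1 and 0, Ccr1 4 and 0, and Ccr6 0 and 1, while Cxcr2, Cxcr3, Ccr2 and Ccr3 had no reads. Cxcr7, which takes up and degrades Cxcl12, was the exception with 352 and 200 reads, a ratio of 1.76 (1.47 to 2.10). Of 24 receptor genes with a row, 4 were tested and 2 were at least 2-fold higher, Ccr7 with 30 and 5 reads (ratio 5.997, 2.30 to 19.8) and Xcr1 with 18 and 5 (3.60, 1.29 to 12.4). None was 2-fold lower. Beside 3.96% of all tested genes and 11.9% of those with fewer than 200 reads, these calls rest on 4 genes, and both called receptors had only 5 reads with scramble.

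Of the genes that control chemokine transcription, only NF-kB factors and inhibitors and upstream cytokines and receptors were listed. The tested genes of these lists mostly differed by less than 2-fold, as did most tested genes. Interferon-regulated factors were not in these lists, so nothing is said of them here. By that fold, 3.96% of all tested genes were higher and 3.08% lower. All 14 listed NF-kB factors and inhibitors were tested, and only Bcl3, an atypical inhibitor that acts with p50 and p52 in the nucleus, passed, with 6161 reads with mimic and 2914 with scramble, a ratio of 2.11 (2.02 to 2.21). The median log2 ratio of the list was 0.10. Of 23 upstream cytokines and receptors 17 were tested, none was past 2-fold in either direction, and the median log2 ratio was 0.14. Of the 7 cytokine genes in this list, Il6 had 370 reads with mimic and 290 with scramble, a ratio of 1.28 (1.09 to 1.49), and Il1a had 7 and 2. Tnf had 1 and 0, Ifnb1 had 0 and 1, and Il1b, Ifng and Il17a had no reads.

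**Figure D5:**
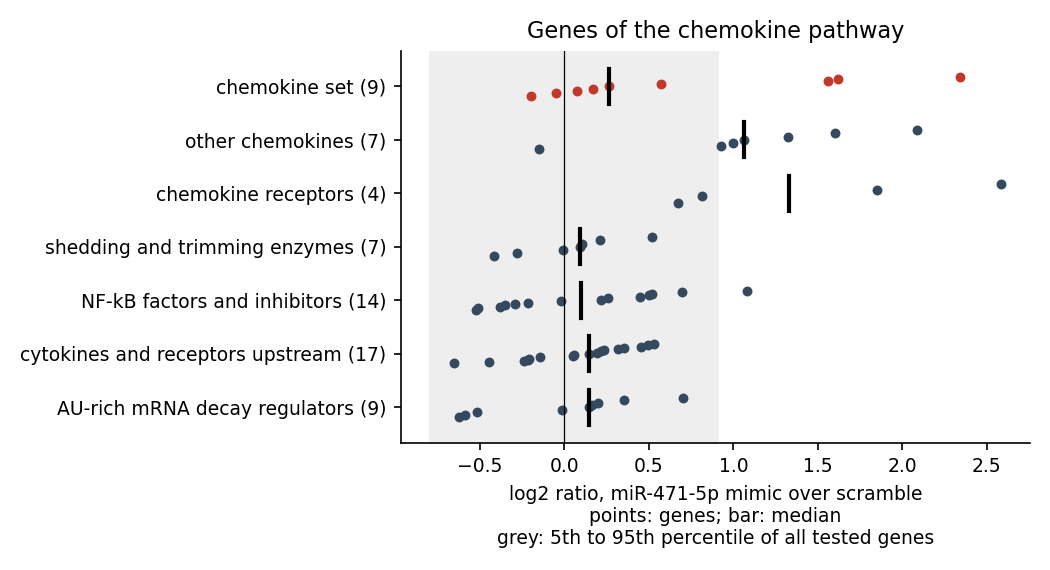
Log2 ratio of mimic to scramble (horizontal axis) for each tested gene of the chemokine set and of 6 lists of the pathway, 1 row per list with the number of tested genes in brackets, points for genes, a bar for the median and a grey band for the 5th to 95th percentile of all tested genes. The ligand and receptor rows reach beyond 1, while the shedding, upstream and AU-rich decay rows lie wholly within the band and Bcl3 alone of the NF-kB row passes it.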

How the data were processed

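For each Ago2 IP library the authors deposited unnormalized counts of reads by gene symbol. The submitters' processing notes name CASAVA 1.8.2, TopHat2 2.0.8b, HTSeq and the build mm9. Annotation, strand setting and read length are not given in the sources used here. Rows naming no gene (47.3% of entries in the mimic library, 44.1% in scramble) were left out. Counts were scaled by TMM (edgeR 4.0.16 in R 4.3.3; factors 1.0026 and 0.9974), and ratios were given for genes with at least 20 reads over both libraries. One library per condition allows no dispersion estimate and no p-value. A gene was called at a ratio of 2 in either direction. Intervals (95%) and the floor of 3 reads cover counting error only. Sequences, lengths and coordinates came from GENCODE M21 and RefSeq (GRCm38), joined to the tables by symbol for 99.1% of tested genes, and are not those of mm9. The code was tested on simulated data. Python 3.11.15 was used.

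Named were the members, receptors they bind, Adam10, Adam17, listed pathway genes past 2-fold, the 5 genes nearest to Cxcl16, markers and, chosen after their values were seen, genes beside or overlapping members, genes with several seed matches, and the upstream cytokines. The members and lists were chosen with earlier results of these data known. Alternatives were DESeq2 1.42.0 size factors, total reads, upper quartile, 0.5 added counts, other count minimums, folds and match types, other transcript lengths, and the longest protein-coding transcript, which was added after seeing the data.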

Additional observations from a re-analysis of the deposited data

Results flagged for a closer look

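The row of reads aligned to more than 1 place, which no comparison above uses, was larger in the mimic library than in the scramble control. It held 14095378 entries, 39.8% of all rows, in the mimic library and 11915725 entries, 35.6%, in the scramble library. The part of Cxcl16, whose 3′ UTR repeats within itself, in this row was not tested.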

How the results depend on the processing

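With a fold of at least 4 in place of 2, 1 member was higher in the mimic library (Cxcl16) and 0 lower. Under the other settings for fold, count minimum and scaling, 3 members were higher and 0 lower. The 9 members' log2 ratios gave 36 values under other scalings or with 0.5 reads added, and 35 stayed within the gene's counting interval. The exception was Cxcl12, -0.18 with upper-quartile scaling against -0.20. A change of scaling shifts all 9 log2 ratios by the same amount, so the 36 values are not separate checks. Under each scaling other than TMM, 5 of 7 other chemokines were past 2-fold in place of 4, because Ccl25 (42 and 21 reads) lies at the threshold. All 4 match types gave 10 sites in Cxcl16. RPKM moved with the transcript length chosen, as given above for Cxcl1, Cxcl12, Cx3cl1, Ccl5 and Ccl2. No replicate could be left out, since each condition has 1 library.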
